A study of Mus musculus with 6 samples.

Results

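Inflammatory output was followed through 8 genes in mouse blood progenitors: the cytokines Tnf and Il1b, the chemokines Cxcl10, Cxcl2, Ccl3 and Ccl4, the prostaglandin enzyme gene Ptgs2 and the adhesion molecule gene Icam1. They were taken by name, as messengers and effectors that inflammatory cells release or display, from a count table of 49671 gene identifiers. Earlier results of these data were known when they were chosen. All 8 passed the filter on low counts, which 14637 genes passed in all. The cells came from BALB/c marrow and were LSK cells, a sorted fraction (no mature lineage markers, Sca-1 and Kit present) in which stem cells and early progenitors lie. In the shCxxc5 group a retroviral short hairpin RNA lowered Cxxc5, whose product is a CXXC zinc finger protein that binds DNA with unmethylated CpG, and in the shCtrl group the hairpin had no target. Cells of both groups had been infected with retrovirus, carried GFP and were sorted from pooled animals, so no library is an animal of its own. Each group had 3 libraries, numbered 2, 3 and 4, from 20000 to 50000 cells.

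These genes belong to the fast arm of inflammation. Signals through Toll-like, TNF and interleukin-1 receptors free the transcription factor NF-kB from its inhibitor, and NF-kB switches on cytokines, chemokines, Ptgs2 and Icam1 together with the genes that later shut the response off. Many of the messages carry AU-rich stretches in the 3′ untranslated region, where decay proteins bind and keep the message short-lived. In marrow, TNF and interleukin-1 act on stem and progenitor cells themselves, and progenitors with Toll-like receptors can release cytokines of their own.

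Every member was read well above the detection limit, which was set at under 10 reads in at least 3 of the 6 libraries. None had a library under 10 reads. Cxcl2 lay closest, with 62, 23 and 21 reads in shCxxc5 replicates 2, 3 and 4 against 34, 51 and 50 reads in shCtrl replicates 2, 3 and 4. Total counts per library ran from 16558791 to 27754019 in shCxxc5 and from 15002414 to 23285446 in shCtrl, so 10 reads stood for 0.347 to 0.672 CPM, the read count scaled to library size and, here, by TMM, a correction for differences in composition between libraries. Cxxc5 lay at 8.22%, 29.1% and 31.0% of shCtrl in the shCxxc5 libraries numbered 2, 3 and 4. A principal component holding 67.6% of the variance set replicate 2 of each group against the other 4 libraries. Gene-wise variation, as edgeR's common biological coefficient, came to 0.312 with replicate 2 and to 0.0294 among replicates 3 and 4. Transcripts of Ly6a, the Sca-1 gene used in the sort, were low in replicate 2, at 33.1 CPM in shCxxc5 and 46.4 CPM in shCtrl, against 702 to 803 CPM in the other libraries, while Kit lay between 82.2 and 110 CPM in all 6.

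**Figure D1:**
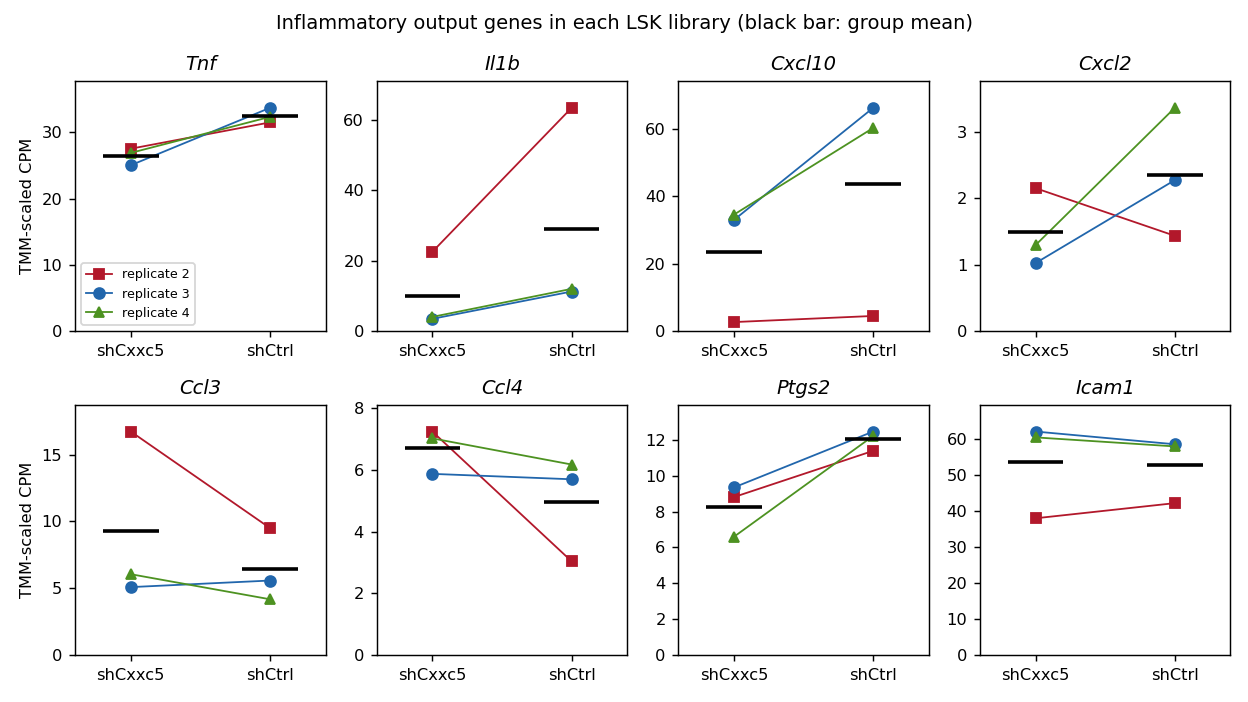
TMM-scaled CPM (linear axis, from 0) of each of the 8 genes in the 3 shCxxc5 and 3 shCtrl libraries, with a line joining libraries of equal replicate number and a black bar at the group mean. Tnf and Ptgs2 lie lower in each shCxxc5 library than in any shCtrl library, Il1b parts by group within each number, and Cxcl10 in replicate 2 stays under 5 CPM in both groups.

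Measured per kilobase of exon, so that genes can be compared with each other, Tnf had the highest mean level over the 6 libraries, at 18 CPM per kb, with a range of 15.3 to 20.5. Cxcl10 followed at 14.9, Icam1 at 12.2, Ccl3 and Il1b at 10.2 each, Ccl4 at 8.86, Ptgs2 at 2.21 and Cxcl2 at 0.930 CPM per kb. The order from Tnf to Ccl4 cannot be read as a ranking. Tnf was the highest member in shCxxc5 replicates 3 and 4, while Ccl3 led in shCxxc5 replicate 2 at 21.8 CPM per kb, Il1b in shCtrl replicate 2 at 33.3, and Cxcl10 in shCtrl replicates 3 and 4 at 29.4 and 26.7. Cxcl10 ran from 1.20 to 29.4 CPM per kb and Il1b from 1.84 to 33.3, so that each range took in the means of Tnf, Icam1, Ccl3 and Ccl4. Ptgs2 (1.44 to 2.72) and Cxcl2 (0.495 to 1.62) overlapped each other, and Ptgs2 lay below Tnf, Icam1, Ccl3 and Ccl4 in every library.

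In GRCm38, by GENCODE M21, Tnf lies at chr17:35199381-35202007, Il1b at chr2:129364570-129371139, Cxcl10 at chr5:92346638-92348889 and Ccl3 at chr11:83647844-83649355, all on the minus strand. On the plus strand lie Ptgs2 at chr1:150100031-150108227, Cxcl2 at chr5:90903871-90905938, Ccl4 at chr11:83662584-83664683 and Icam1 at chr9:21015985-21028817. Below are RefSeq's promoter windows in GRCm38.p6, 250 bases before to 50 after the annotated start, for the 5 members that fell in replicates 3 and 4, each read along its gene's strand. Capitals mark matches to the kappaB consensus (either strand), to GAAANNGAA (the core of an interferon-response element, either strand), to TGANTCA (an AP-1 motif, either strand) and to TATAAA (on the gene's strand).
Tnf (chr17:35201958-35202257, minus strand): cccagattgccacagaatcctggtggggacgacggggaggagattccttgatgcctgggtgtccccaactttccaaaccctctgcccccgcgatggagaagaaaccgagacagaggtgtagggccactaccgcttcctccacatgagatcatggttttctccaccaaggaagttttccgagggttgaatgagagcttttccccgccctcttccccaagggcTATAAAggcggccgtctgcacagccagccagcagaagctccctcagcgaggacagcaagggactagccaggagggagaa
Il1b (chr2:129371090-129371389, minus strand): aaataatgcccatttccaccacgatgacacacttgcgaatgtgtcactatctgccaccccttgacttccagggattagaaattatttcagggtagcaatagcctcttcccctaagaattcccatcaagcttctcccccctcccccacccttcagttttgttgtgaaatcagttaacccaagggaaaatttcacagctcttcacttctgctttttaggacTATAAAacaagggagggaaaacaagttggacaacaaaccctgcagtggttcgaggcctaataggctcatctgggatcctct
Ptgs2 (chr1:150099781-150100080, plus strand): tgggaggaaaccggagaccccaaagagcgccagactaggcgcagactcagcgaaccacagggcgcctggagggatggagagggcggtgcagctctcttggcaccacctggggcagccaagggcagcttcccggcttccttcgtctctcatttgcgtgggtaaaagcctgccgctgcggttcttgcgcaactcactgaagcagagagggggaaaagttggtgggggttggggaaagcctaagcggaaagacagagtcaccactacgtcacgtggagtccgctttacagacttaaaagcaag
Cxcl10 (chr5:92348840-92349139, minus strand): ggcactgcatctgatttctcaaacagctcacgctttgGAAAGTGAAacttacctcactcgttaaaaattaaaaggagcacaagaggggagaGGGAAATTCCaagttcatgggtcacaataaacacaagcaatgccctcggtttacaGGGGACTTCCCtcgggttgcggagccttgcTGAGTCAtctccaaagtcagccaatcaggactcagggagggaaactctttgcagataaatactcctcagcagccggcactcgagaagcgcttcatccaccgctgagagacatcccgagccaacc
Cxcl2 (chr5:90903649-90903948, plus strand): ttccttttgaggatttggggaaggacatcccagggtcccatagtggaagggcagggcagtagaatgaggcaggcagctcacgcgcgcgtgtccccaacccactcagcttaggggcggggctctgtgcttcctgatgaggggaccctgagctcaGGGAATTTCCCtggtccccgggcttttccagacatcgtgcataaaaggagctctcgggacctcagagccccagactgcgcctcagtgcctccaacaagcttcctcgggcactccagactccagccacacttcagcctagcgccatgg

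Cxcl10, a chemokine that draws activated T cells and is induced by interferon and by NF-kB, held the most matches: 3 to the kappaB consensus, of which a pair overlaps by all but 1 base, and 1 each to GAAANNGAA and TGANTCA. Cxcl2 held 2 kappaB matches that overlap in the same way. Tnf and Il1b each held a TATAAA just upstream of the start, and neither held a kappaB match in this window. Ptgs2 held no match to any of the 4, Ccl3 held 1 to GAAANNGAA, and Icam1 held a TATAAA after its start. Among 32851 RefSeq windows of the same length, 8.46% held a kappaB match, 8.56% GAAANNGAA, 7.81% TGANTCA and 8.32% TATAAA. CpG dinucleotides, the letters that the CXXC domain binds when they are unmethylated, numbered 19 in the Icam1 window, 16 in Ptgs2, 11 in Tnf and in Cxcl2, 10 in Cxcl10 and 3 in Il1b and in Ccl3, against a median of 7 over all windows. The promoter of Ccl4 was not analysed here.

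The messages also differ in AU-rich letters at their 3′ end. Shown for 6 members is a stretch of 30 bases of the 3′ untranslated region with the most ATTTA pentamers, in GRCm38 coordinates, with each pentamer in capitals.
Tnf (chr17:35199679-35199708, minus strand): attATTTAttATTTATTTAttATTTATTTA
Il1b (chr2:129364808-129364837, minus strand): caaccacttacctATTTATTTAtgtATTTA
Ptgs2 (chr1:150105794-150105823, plus strand): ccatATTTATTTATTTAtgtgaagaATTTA
Cxcl2 (chr5:90905327-90905356, plus strand): tATTTATTTAtctatgtATTTATTTATTTA
Cxcl10 (chr5:92346949-92346978, minus strand): ttttatttcagatgtaagactacaaATTTA
Ccl3 (chr11:83648085-83648114, minus strand): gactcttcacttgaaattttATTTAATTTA

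Ptgs2 had 14 ATTTA pentamers over its 3′ untranslated region, Cxcl2 had 11, Tnf 8, Ccl3 5, Il1b 4, Icam1 4, Cxcl10 2 and Ccl4 2. The median over 12228 tested genes was 1, and 65.6% of them had at least 1. The counts of Ptgs2, Cxcl2 and Tnf exceeded those of 97.9%, 95.7% and 91.2% of these genes, and the counts of Cxcl10 and Ccl4 exceeded those of 54.0%. Long regions hold more pentamers: Ptgs2 has 2445 bases there and Ccl4 has 302. The letters are a description of the messages, and decay was not measured.

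Among the cytokines, Il1b stood lower in the shCxxc5 library of every pair by a similar proportion, and Tnf stood lower by a smaller one. Il1b encodes the precursor of interleukin-1 beta, a fever-inducing cytokine that caspase-1 cuts into its active form. Its level was 22.6, 3.52 and 4.07 CPM in shCxxc5 replicates 2, 3 and 4, against 63.4, 11.3 and 12.0 CPM in shCtrl replicates 2, 3 and 4. The replicate 2 libraries were the highest of each group, and shCxxc5 replicate 2 lay above shCtrl replicates 3 and 4, so that the groups overlapped. Within the pairs Il1b was at 35.6%, 31.3% and 34% of shCtrl, and the log2 ratios of shCxxc5 over shCtrl were -1.49 (95% interval -1.63 to -1.36), -1.67 (-2.06 to -1.31) and -1.56 (-1.99 to -1.15). These intervals are exact binomial ones that cover counting error alone. They overlapped one another, while the levels within a group differed between replicate 2 and the other libraries by more than 5-fold.

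The test result for Il1b turned on how the libraries were joined. Over all 6 libraries the SD within a group was 10.8 CPM in shCxxc5 and 29.9 CPM in shCtrl (n = 3 each), and the log2 fold change by edgeR's quasi-likelihood test was -1.52 (SE 1.01), at an adjusted p (Benjamini-Hochberg) of 0.940. With the replicate number as a block edgeR gave -1.57 (SE 0.11) with an adjusted p of 0.297, on 2 residual degrees of freedom. DESeq2 with the same block, a fit chosen after seeing the data, gave -1.56 with an adjusted p of 1.78e-11. In replicates 3 and 4 alone edgeR gave -1.62 (SE 0.15) with an adjusted p of 4.05e-09. This fit leaves out replicate 2, which was already known from these data to lie apart. Replicates 3 and 4 resemble each other closely, so its p-values measure a spread that may be technical. The same holds for every later p-value and call from replicates 3 and 4. Without shCxxc5 replicate 2 the fit over the remaining libraries stood at -2.93, and without shCtrl replicate 2 at -0.20, since each leaves the other library of that pair in place.

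Summed markers of megakaryocytes, the cells that make platelets, were highest in replicate 2 of each group and lower in the shCxxc5 library of each pair. Il1b had both features. Over all tested genes, 17.7% were higher in replicate 2 by edgeR's test and 22.6% had ratios below 0 in all 3 pairs. The 10 markers, all of which were tested and none of which was at 0, summed to 1633, 308 and 300 CPM in shCxxc5 replicates 2, 3 and 4 and to 6901, 486 and 484 CPM in shCtrl replicates 2, 3 and 4. The 14 tested of 16 markers of monocytes and macrophages, cells that make much of the interleukin-1 beta in tissues, summed with the other 2 to 390.0, 581.6 and 609.9 CPM in shCxxc5 and to 397.1, 614.1 and 654.3 CPM in shCtrl, and none of the 16 was at 0 in all libraries. Their part in the result was not tested. In RNA from sorted bulk cells, fewer cells of a type and less RNA per cell cannot be told apart. The exons of Il1b share 25 bases with the antisense gene Il1bos, and whether the counting used strand is not given in the sources used here.

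Tnf, which encodes the cytokine that activates NF-kB in its target cells, had the narrowest range of the members relative to its level over the 6 libraries. It was measured at 27.5, 25.0 and 26.9 CPM in shCxxc5 replicates 2, 3 and 4, against 31.5, 33.7 and 32.3 CPM in shCtrl replicates 2, 3 and 4. Every shCxxc5 library lay below every shCtrl library, a pattern that 6.35% of tested genes showed in this direction. The group means were 26.5 ± 1.29 CPM in shCxxc5 and 32.5 ± 1.11 CPM in shCtrl (SD, n = 3 each). The log2 ratios in pairs 2, 3 and 4 were -0.19 (-0.34 to -0.05), -0.43 (-0.59 to -0.27) and -0.27 (-0.46 to -0.08). Over all 6 libraries edgeR gave -0.30 (SE 0.10) with an adjusted p of 0.940, and with the replicate block the adjusted p was 0.389. In replicates 3 and 4 Tnf fell by 0.35 on the log2 scale (SE 0.08) with an edgeR adjusted p of 0.00164, a smaller change than that of Il1b.

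**Figure D2:**
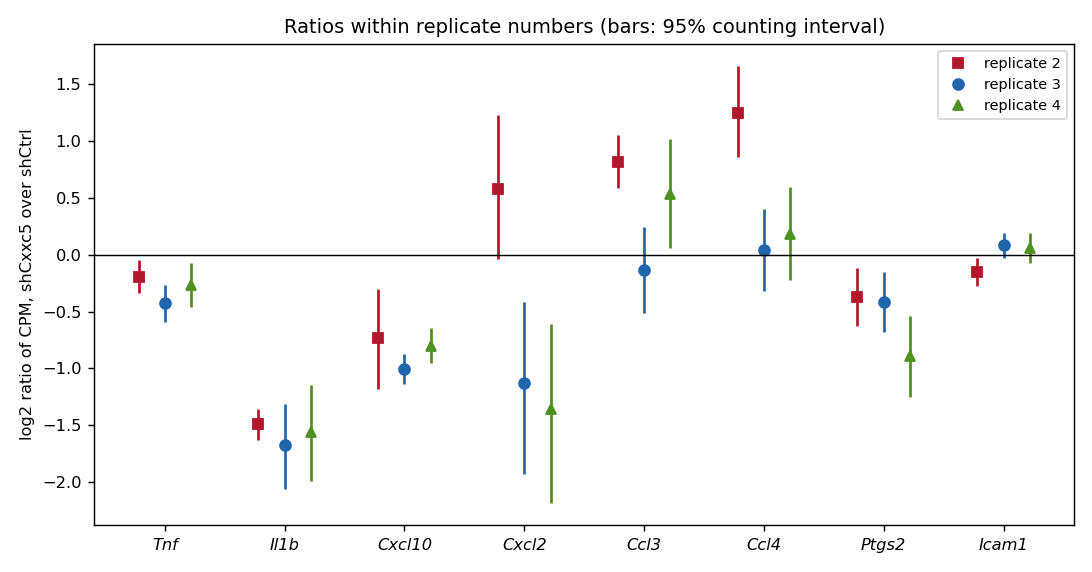
log2 ratio of TMM-scaled CPM, shCxxc5 over shCtrl, within replicate numbers 2, 3 and 4 for each gene, with bars for the 95% counting interval and a line at 0. Il1b stays between -1.67 and -1.49 in all 3 pairs, Tnf, Ptgs2 and Cxcl10 lie below 0 in all 3, and Cxcl2 and Ccl3 take both signs.

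The chemokines divided by direction. Cxcl10 lay lower in the shCxxc5 library of each pair, Cxcl2 did so in pairs 3 and 4, while of Ccl3 and Ccl4, which recruit monocytes and T cells, Ccl3 took both signs and Ccl4 lay higher in each pair. Cxcl10 was measured at 2.71, 32.9 and 34.5 CPM in shCxxc5 replicates 2, 3 and 4, against 4.52, 66.1 and 60.2 CPM in shCtrl replicates 2, 3 and 4. Both replicate 2 libraries were far below the other 4, and apart from them each shCxxc5 library lay below each shCtrl library. The pair ratios on the log2 scale were -0.74 (-1.18 to -0.30), -1.0 (-1.13 to -0.88) and -0.80 (-0.96 to -0.65). Over all 6 libraries edgeR gave -0.90 (SE 1.16) with an adjusted p of 0.946, and with the replicate block -0.86 (SE 0.10) with 0.297. DESeq2 with the block, the fit chosen after seeing the data, gave an adjusted p of 0.000287. Cxcl10 fell by 0.91 on the log2 scale in replicates 3 and 4 (SE 0.07; edgeR adjusted p of 3.24e-11).

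The interferon-response list, whose genes share inducers with Cxcl10, was also low in replicate 2. Its 24 genes summed to 844, 4357 and 4335 CPM in shCxxc5 replicates 2, 3 and 4 and to 932, 4561 and 4551 CPM in shCtrl replicates 2, 3 and 4, and none of them was at 0 in all libraries. Between the groups in replicates 3 and 4 the median log2 fold change of this list was -0.06, with 10 genes lower and 1, Bst2, higher past the threshold, against -0.91 for Cxcl10. Its 3 most abundant members per kilobase were the tetherin gene Bst2 (0.16, edgeR adjusted p of 0.00252), the interferon regulator Irf7 (-0.06, adjusted p of 0.168) and Ifi44 (0.03, adjusted p of 0.571). Exons of Cxcl10 share 133 bases with Art3 on the opposite strand.

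Cxcl2, which attracts neutrophils through Cxcr2, was the least abundant member. It was measured at 2.15, 1.02 and 1.29 CPM in shCxxc5 replicates 2, 3 and 4, against 1.43, 2.27 and 3.36 CPM in shCtrl replicates 2, 3 and 4. The groups overlapped through the replicate 2 libraries, of which the shCxxc5 one was the higher. Ratios within pairs were 0.57 (-0.04 to 1.23), -1.13 (-1.93 to -0.41) and -1.36 (-2.19 to -0.61) on the log2 scale, so the interval of pair 2 took in 0 and did not meet the other intervals. Cxcl2 fell by 1.26 on the log2 scale in replicates 3 and 4 (SE 0.31; edgeR adjusted p of 0.00403), on 21 to 51 reads per library. Over all 6 libraries its log2 fold change was -0.64 (SE 0.44; edgeR adjusted p of 0.940), and with the replicate block -0.61 (adjusted p of 0.575).

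Ccl3 was measured at 16.7, 5.08 and 6.04 CPM in shCxxc5 replicates 2, 3 and 4, against 9.50, 5.57 and 4.17 CPM in shCtrl replicates 2, 3 and 4. The highest value of each group came from replicate 2, and the remaining 4 libraries were interleaved. Its ratios were 0.81 (0.59 to 1.05), -0.13 (-0.51 to 0.24) and 0.53 (0.06 to 1.02) on the log2 scale. Ccl4, its neighbour on chromosome 11, was measured at 7.25, 5.88 and 7.03 CPM in shCxxc5 replicates 2, 3 and 4, against 3.04, 5.70 and 6.18 CPM in shCtrl replicates 2, 3 and 4. The spread between the groups came mainly from shCtrl replicate 2, the lowest library. Its ratios were 1.25 (0.86 to 1.66), 0.04 (-0.32 to 0.41) and 0.18 (-0.22 to 0.60) on the log2 scale, above 0 in all pairs, as for 19.0% of tested genes. Neither gene passed edgeR's test: the adjusted p was 0.940 for each over all 6 libraries, with log2 fold changes of 0.53 (SE 0.55) for Ccl3 and 0.44 (SE 0.30) for Ccl4. Within replicates 3 and 4 they stood at 0.15 (SE 0.18; edgeR adjusted p of 0.619) and 0.12 (SE 0.16; adjusted p of 0.679).

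Ptgs2, which encodes cyclooxygenase-2, the inducible enzyme at the head of prostaglandin synthesis, had levels in shCxxc5 that did not overlap those in shCtrl, as for 6.35% of tested genes in this direction, and no fit over all 6 libraries called it. It was measured at 8.81, 9.35 and 6.60 CPM in shCxxc5 replicates 2, 3 and 4, against 11.4, 12.5 and 12.2 CPM in shCtrl replicates 2, 3 and 4. The shCtrl libraries lay close together and shCxxc5 replicate 4 was the lowest of the 6. The means were 8.25 ± 1.46 CPM in shCxxc5 and 12.0 ± 0.565 CPM in shCtrl (SD, n = 3 each). Its ratios were -0.37 (-0.62 to -0.12), -0.41 (-0.68 to -0.15) and -0.89 (-1.25 to -0.54) on the log2 scale. Over all 6 libraries edgeR gave -0.54 (SE 0.18) with an adjusted p of 0.940, and with the replicate block 0.382. Ptgs2 fell by 0.60 on the log2 scale in replicates 3 and 4 (SE 0.14; edgeR adjusted p of 0.00195).

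Icam1, the adhesion molecule that leukocyte integrins bind, showed no difference between shCxxc5 and shCtrl past the test in any fit. It was measured at 38.0, 62.1 and 60.5 CPM in shCxxc5 replicates 2, 3 and 4, against 42.2, 58.6 and 58.0 CPM in shCtrl replicates 2, 3 and 4. The replicate 2 libraries were the lowest of each group and the groups overlapped. Its ratios were -0.15 (-0.28 to -0.03), 0.08 (-0.03 to 0.19) and 0.06 (-0.07 to 0.19) on the log2 scale. In replicates 3 and 4 the log2 fold change was 0.08 (SE 0.06; edgeR adjusted p of 0.369); the counting intervals of those pairs reach 0.19 at most and -0.07 at least. Over all 6 libraries it was 0.02 (SE 0.23; adjusted p of 0.996). Exons of Icam1 share 511 bases with Gm47079 on the opposite strand.

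**Figure D3:**
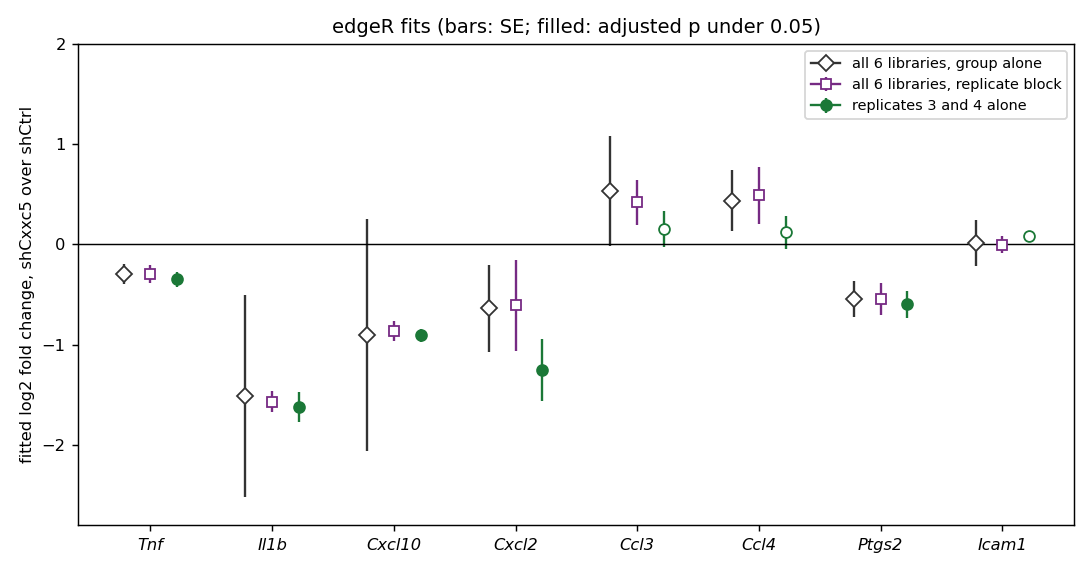
Fitted log2 fold changes, shCxxc5 over shCtrl, from edgeR over all 6 libraries, with the replicate block, and in replicates 3 and 4 alone, with bars for the SE and filled symbols for an adjusted p under 0.05. The estimates for Il1b lie between -1.62 and -1.52 in the 3 fits, with an SE of 1.01 without the block and 0.11 with it.

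Counted together, 0 of the 8 members passed edgeR's test over all 6 libraries, where 0 of 14637 genes passed (0%), with 575 genes at an unadjusted p under 0.05 (3.93%). With the replicate block edgeR again called 0 members and 0% of genes, with 1797 genes at an unadjusted p under 0.05. DESeq2 without a block called 0 members and 0.0842% of genes. With the block, a fit chosen after seeing the data, DESeq2 called Il1b and Cxcl10 lower, where 0.862% of genes were called lower. In replicates 3 and 4 alone edgeR called 20.0% of 14193 genes, 9.0% lower and 11% higher. Of the members, 5 fell there, namely Tnf, Il1b, Ptgs2, Cxcl10 and Cxcl2, and 0 rose. The median log2 fold change of the 8 was -0.47 in replicates 3 and 4, against -0.00 over all genes tested, and -0.42 over all 6 libraries, against -0.02. Ratios were below 0 in all 3 pairs for 4 members, Tnf, Il1b, Ptgs2 and Cxcl10, as for 22.6% of tested genes. These counts and medians are a description, because the 8 genes were chosen with earlier results of these data known. Nothing in the labels marks the numbers as separate infections, and replicates 3 and 4 resemble each other closely, so these p-values measure a spread between libraries that may be technical.

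Summed over the 8 members, the level was 125.7, 144.9 and 146.9 CPM in shCxxc5 replicates 2, 3 and 4, against 167.0, 195.7 and 188.4 CPM in shCtrl replicates 2, 3 and 4. The makeup of that sum depended on the replicate number. Il1b held 17.9%, 2.4% and 2.8% of it in shCxxc5 and 38.0%, 5.8% and 6.4% in shCtrl. Cxcl10 held 2.2%, 22.7% and 23.5% in shCxxc5 and 2.7%, 33.8% and 31.9% in shCtrl. Icam1, the most abundant member by CPM in each shCxxc5 library, held 30.2%, 42.9% and 41.2% in shCxxc5 and 25.3%, 29.9% and 30.8% in shCtrl.

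Apart from the hairpin, 4 members differed between replicate 2 and replicates 3 and 4, with the group kept in the fit. This contrast was set after replicate 2 had been seen to lie apart in the same data. Its p-values therefore describe that split and do not test it. Il1b was higher in both replicate 2 libraries by 2.51 on the log2 scale (SE 0.10; edgeR adjusted p of 2.68e-05) and Ccl3 by 1.29 (SE 0.20; adjusted p of 0.00467). Cxcl10 was lower in them, with a log2 difference of -3.73 (SE 0.11; adjusted p of 8.35e-06), and so was Icam1, with -0.58 (SE 0.08; adjusted p of 0.00283). Over all genes 18.7% were lower and 17.7% higher in replicate 2 by this test. Tnf (0.01), Ptgs2 (0.01) and Cxcl2 (0.02) stood near 0, with adjusted p of 0.942, 0.971 and 0.981, and Ccl4 stood at -0.33 (adjusted p of 0.379). What the replicate number stands for is not given in the labels, so infection, sort and sequencing cannot be told apart in this contrast.

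**Figure D4:**
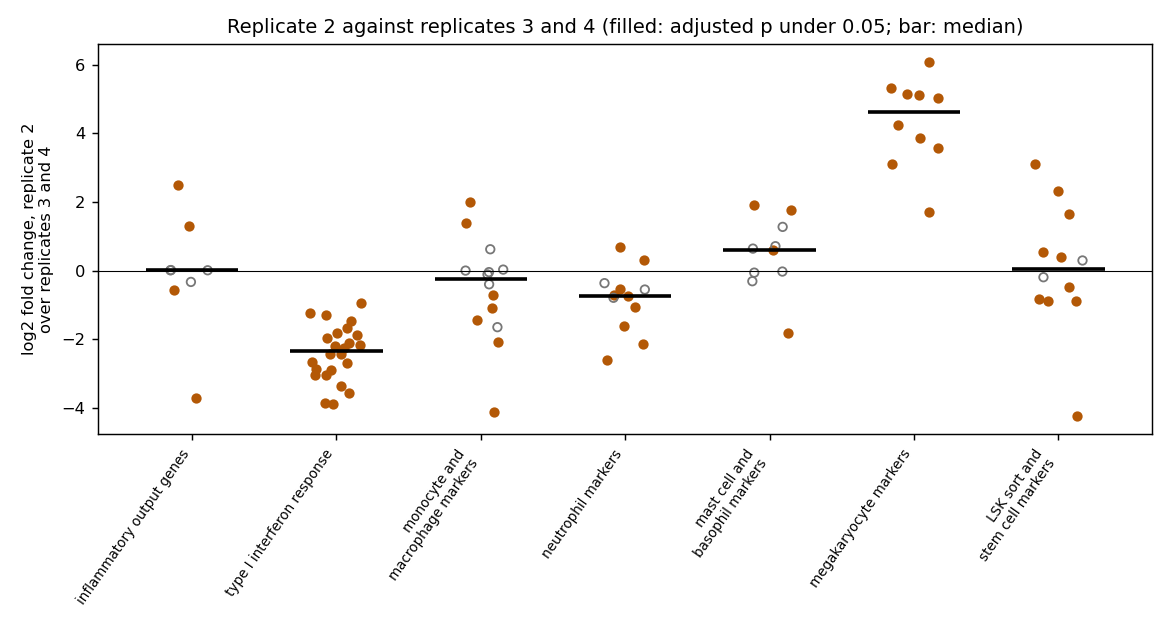
Fitted log2 difference between the replicate 2 libraries and replicates 3 and 4, with the group in the fit, for each tested gene of each list, with filled points for an adjusted p under 0.05 and a bar at the list's median. Interferon-response genes have a median of -2.34 and megakaryocyte markers one of 4.64.

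The genes that receive, process and restrain these signals were read from lists of named genes. As the background stood the share of all genes called in replicates 3 and 4 (9.0% lower and 11% higher). That fit was made with replicate 2 known to lie apart. Over all 6 libraries edgeR called 0 genes in any of these lists. Of 17 receptors for the members' products, 16 were tested, and their median ratios on the log2 scale were 0.03 in pair 2, -0.17 in pair 3 and -0.12 in pair 4. Their most abundant members per kilobase were the integrin chain Itgb2, part of the Icam1 receptor LFA-1, and the TNF receptors Tnfrsf1a and Tnfrsf1b. In replicates 3 and 4 Itgb2 fell by 0.18 on the log2 scale (edgeR adjusted p of 0.0203), while Tnfrsf1a stood at 0.04 and Tnfrsf1b at -0.05. Of 14 receptors tested there 4 were lower and 0 higher. The other 3, named after their values were seen, were the prostaglandin receptor Ptger2 (-0.68), the LFA-1 partner Itgal (-0.35) and the chemokine receptor Ccr1 (-0.26). In pair 2 Ptger2 had a log2 ratio of -0.54, while Itgal and Ccr1 lay above 0, at 0.22 and 1.02.

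Among 15 tested genes for the maturation, shedding and antagonism of these products, 5 were lower and 0 higher in replicates 3 and 4, with a median of -0.12. The abundant ones, the proteases Casp8 (0.08) and Casp1 (-0.09) and the pore protein Gsdmd (0.01), did not pass edgeR's test there. Those that fell, named after their values were seen, included Il1rn, which encodes the interleukin-1 receptor antagonist, at -1.05, the inflammasome sensor Nlrp3 at -0.84 and the caspase Casp4 at -0.49. Il1rn was measured at 3.05, 6.90 and 7.40 CPM in shCxxc5 replicates 2, 3 and 4, against 4.01, 15 and 14.5 CPM in shCtrl replicates 2, 3 and 4. It was lower in the shCxxc5 library of all 3 pairs, while Nlrp3 had a ratio of 0.07 in pair 2.

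Of 15 tested further chemokines, 6 were lower and 1 higher in replicates 3 and 4, with a median log2 fold change of -0.68. The platelet chemokines Pf4 and Ppbp were the most abundant per kilobase and fell by 0.68 and 0.93 on the log2 scale (edgeR adjusted p of 2.74e-07 and 0.000234), beside the megakaryocyte markers whose sums are given above and which they belong to. Ccl6 rose by 0.35 (edgeR adjusted p of 0.00382). Others that fell, named after their values were seen, were Cxcl3 (-1.10), the close relative of Cxcl2, Cxcl11 (-0.82), which shares a receptor with Cxcl10, Ccl5 (-0.74) and Cxcl16 (-0.68). Cxcl11 and Ccl5 were low in replicate 2, at 1.70 and 0.763 CPM in shCxxc5 and 0.971 and 1.31 CPM in shCtrl, against 6.81 to 19.2 CPM for the pair of genes in the other libraries. Of 15 further cytokines tested there, 5 were lower and 1 higher, with a median of -0.20. Mif rose by 0.19 and Ltb, which encodes lymphotoxin beta, fell by 0.40, while Tgfb1 stood at 0.13 (edgeR adjusted p of 0.056). Il1a, the sister gene of Il1b, named after its values were seen, stood at -0.51, -1.01 and -1.38 in pairs 2, 3 and 4 and fell by 1.19 in replicates 3 and 4.

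**Figure D5:**
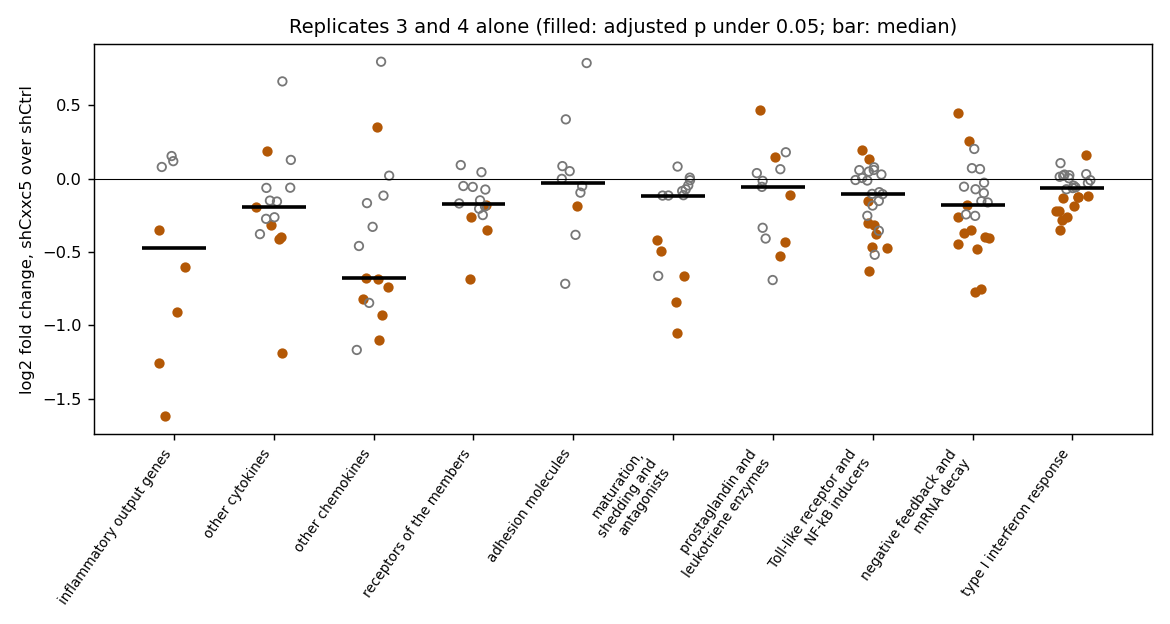
Fitted log2 fold change, shCxxc5 over shCtrl, in replicates 3 and 4 for each tested gene of each list, with filled points for an adjusted p under 0.05 and a bar at the list's median. Further chemokines have the lowest median of the signalling lists, -0.68, and the interferon-response list has -0.06.

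A list of negative feedback and mRNA decay genes, which joins inhibitors of NF-kB signalling, Socs and Dusp genes and RNA-binding proteins, held 10 lower and 2 higher of 23 in replicates 3 and 4, with a median log2 fold change of -0.18. Ratios were below 0 in all 3 pairs for 15 of the 23, against 22.6% of all tested genes. The inhibitor gene Nfkbia, itself a target of NF-kB, fell by 0.44 (edgeR adjusted p of 6.9e-08) and the phosphatase gene Dusp2 by 0.48 (adjusted p of 2.6e-09), while the mRNA decay factor Zfp36l2 stood at -0.03. Nfkbiz and Tnfaip3, which encodes the ubiquitin-editing enzyme A20, stood at -0.77 and -0.75 and were named after their values were seen. Nfkbiz was the list gene that DESeq2 called over all 6 libraries, at an adjusted p of 0.0497, just under the threshold. There edgeR gave it an adjusted p of 0.940. The 2 that rose, also named after their values were seen, were the RNA-binding protein genes Hnrnpd and Elavl1, whose products bind AU-rich letters, at 0.44 and 0.25. In pair 2 their log2 ratios were -0.07 and -0.008. Among 25 tested Toll-like receptor and NF-kB inducing genes 7 were lower and 2 higher, with a median of -0.11. Nfkb1 fell by 0.15 there (edgeR adjusted p of 0.00195), and Irak1 (0.06) and Tab2 (-0.01) did not pass. Relb (-0.63) and Nfkb2 (-0.47), named after their values were seen, fell further and lay below 0 in all 3 pairs. The 2 higher genes, named in the same way, were Myd88 (0.20) and Map3k7 (0.13). In the prostaglandin and leukotriene list, 3 of 13 tested genes were lower and 2 higher (median -0.06), with Ptges3 at 0.47 and the housekeeping cyclooxygenase Ptgs1 and the leukotriene factor Alox5ap not past the test. The other genes called, named after their values were seen, were Alox5 (-0.53), Tbxas1 (-0.43), Pla2g4a (-0.11) and Lta4h (0.14). The 3 that fell lay below 0 in all 3 pairs, and the 2 that rose lay above 0 in all 3. Of 10 tested adhesion genes, 1, Pecam1, was lower (-0.19) and 0 were higher, with Selplg at -0.05 and Cd44 at 0.08.

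Markers of other cell types were set beside the members in replicates 3 and 4, where Il1b and Cxcl10 stood at -1.62 and -0.91. Megakaryocyte markers had a median log2 fold change of -0.64 there, with 5 lower and 0 higher of 9 tested. Monocyte and macrophage markers had a median of -0.18, with 5 lower, among them Lyz2 (-0.19, edgeR adjusted p of 0.0204), and 2 higher, among them Ccr2 (0.17, adjusted p of 0.00148); Cd68 stood at -0.18 (adjusted p of 0.121). Neutrophil markers had a median of -0.15, with 2 lower and 1 higher of 12, and sums of 571.5, 615.9 and 700.8 CPM in shCxxc5 and 413.5, 740.4 and 684.6 CPM in shCtrl. Mast cell and basophil markers summed to 1856, 600 and 556 CPM in shCxxc5 and to 353, 617 and 626 CPM in shCtrl, highest in shCxxc5 replicate 2, the library with the highest Ccl3 and Ccl4. In replicates 3 and 4 their median was -0.04, with 4 lower and 3 higher of 10. Dendritic cell markers had a median of 0.01 (4 of 8 tested, 0 lower and 1 higher) and stromal and endothelial markers one of -0.08 (8 of 10 tested, 1 lower and 1 higher). Of 10 T and NK cell markers 3 were tested, with a median of -0.21 and none called, and Cd3e was at 0 in all 6 libraries, and of 8 B cell markers 1 was tested, at -0.12. The part of these cells in the members' values was not tested. The 12 LSK sort and stem cell markers had a median log2 ratio of -0.51 in pair 2, 0.02 in pair 3 and 0.05 in pair 4, and 2 of them were lower and 3 higher in replicates 3 and 4.

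For each member the 3 genes most like it were taken by Pearson's r of log2 CPM over the 6 libraries, among 9449 genes. With 6 points that share depth and the replicate 2 split, such values are high for many genes. Cxcl10 was most like Pdcd1, Arhgap28 and Saa3 (r of 0.999 for each), and Icam1 was most like Pard6g, Itgav and Dennd3 (0.998 to 0.999). Il1b was most like Atxn7, Ciita and Ptprv (0.994 to 0.998), and Tnf was most like Pde8a (0.993), Zfp74 and Tbc1d31. Ptgs2 was most like Atmin, Wars2 and Lrrk2, Cxcl2 like Borcs7, Mterf2 and Jdp2, Ccl3 like Xylt1, Fech and Hs6st1, and Ccl4 like Pcmt1, Lamtor4 and Urod (0.959 to 0.998). Between members, r was 0.95 for Cxcl10 and Icam1, 0.79 for Tnf and Ptgs2 and -0.94 for Cxcl10 and Ccl3.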

How the data were processed

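Messenger RNA was sequenced from 6 libraries of sorted LSK cells. The deposited values are raw read counts for 49671 Ensembl identifiers. Per the submitters' processing notes, STAR 2.5.2b, featureCounts 1.5.1 and DESeq2 were used, with the GRCm38 build. Annotation release and strand setting are not given. Symbols came from GENCODE M21, which named 49412 identifiers, and the other 259 held 0.0557% of counts.

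Here edgeR 4.0.16 in R 4.3.3 (TMM scaling, filterByExpr, robust quasi-likelihood test on the group, 4 residual degrees of freedom) gave fold changes, standard errors (the absolute log2 fold change over the square root of F) and Benjamini-Hochberg adjusted p-values over all tested genes, with a threshold of 0.05. Pair ratios used a prior count of 0.5 and exact 95% conditional binomial intervals. Deviations from group means correlated at 0.670, 0.554 and 0.489 between libraries of equal number, for 2, 3 and 4. A library 3 set against the opposite group's library 4 gave close values (0.475 and 0.489). This check thus paired the replicate 2 libraries and did not tell numbers 3 and 4 apart. No libraries agreed within sampling noise (chi-square per degree of freedom of 2.24 and above). Alternatives were a replicate block, replicates 3 and 4 alone, DESeq2 1.42.0, other scalings and filters, no robust fit and leaving out each library. Code was tested on simulated counts.

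The 8 genes and the lists were chosen with earlier results of these data known. Named genes were the members, the 3 most abundant genes per kilobase of each list, list genes past the threshold over all 6 libraries with or without the block, and the 3 genes most like each member with an average log2 CPM of at least 3. Further list genes were picked with their values in view, and the text says so beside them. Some genes and lists that this rule takes are given only as counts or not reported here. Promoter sequences are from RefSeq (GRCm38.p6) and matched 7 of 8 members; 3′ regions are from GENCODE transcripts. Intervals cover counting error alone.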

Additional observations from a re-analysis of the deposited data

How the results depend on the processing

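Direction and call of the 8 members over all 6 libraries held under other scalings, filters and no robust fit. With the replicate block, an alternative because the labels state no pairing, Icam1 turned to -0.0017, while edgeR's count stayed at 0 genes. The count was 12 genes with DESeq2, 139 when the block was added to it (an alternative chosen after seeing the data; 2 members) and 2833 in replicates 3 and 4 alone (5 members); the lists held 1 called gene with DESeq2 and 87 in replicates 3 and 4. The cause was not tested. Leaving out each library in turn gave -0.21 to 0.93 for Ccl3, -0.12 to 0.21 for Icam1, -2.93 to -0.20 for Il1b and -1.44 to -0.37 for Cxcl10. For replicate 2 against the others, 3387 genes were called with the block and 3183 to 8816 without each library in turn. Members near 0 there changed sign: without a filter Tnf stood at -0.018, Ptgs2 at -0.018 and Cxcl2 at -0.0084, with DESeq2 Tnf at -0.0068 and Ptgs2 at -0.0063, and with left-out libraries Tnf ran from -0.074 to 0.089, Ptgs2 from -0.12 to 0.12, Cxcl2 from -0.94 to 0.91 and Ccl4 from -0.96 to 0.18. Depth limits Cxcl2, with 21 to 62 reads per library.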
